A study of Mus musculus with 6 samples.

Results

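The Ms4a family encodes small proteins that cross the cell membrane several times, many of them carried by 1 kind of immune cell. The genes described here are Ms4a1, Ms4a2, Ms4a4a, Ms4a4b, Ms4a4c, Ms4a6b, Ms4a6c, Ms4a6d, Ms4a7 and Ms4a8a, 10 of the 19935 genes with a value. A gene entered if a probe set of the array, the group of probes that gives 1 value per gene, carried its symbol and no other in the platform annotation. The rule takes the brightest probe set of a gene, but each of the 10 genes had 1 probe set only. The genes were chosen by family name with the intensities and log2 fold changes of the genotype comparison already known, so the differences between genotypes below are a description of that list and not an independent test of it. In all, 19 Ms4a genes had such a probe set, and the other 9 are given for comparison.

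Whole-lung RNA of mice was hybridised to Affymetrix whole-transcript arrays, with 3 arrays of wild-type mice and 3 of Scnn1b-Transgenic (Scnn1b-Tg) mice, all on 1 C57BL/6 background. The gene Scnn1b codes for a subunit (β) of the sodium channel of epithelia, and mice that overexpress it in the airways are used as a model of dehydrated airway mucus with inflammation. The stated purpose was to find candidate genes for emphysema. Neither age, sex, the promoter of the transgene nor whether each array held 1 animal is given in the sources used here, so the errors measure the spread between these samples, which may be technical.

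Ms4a proteins act as parts of receptor complexes or as partners of other surface receptors. Ms4a1 is the B cell antigen CD20, and Ms4a2 is the β chain of the high-affinity IgE receptor of mast cells and basophils. Ms4a4a is a macrophage protein that associates with the β-glucan receptor Dectin-1, the product of Clec7a, and in mouse macrophages Ms4a8a is known from alternative activation. Ms4a7 is found in macrophages and microglia, Ms4a6c and Ms4a6d in monocytes and macrophages, and Ms4a4b in T cells. In lung, alveolar and interstitial macrophages, monocytes and lymphocytes could all contribute to these signals. In RNA of whole lung, fewer or more cells of a type and less or more RNA per cell cannot be told apart.

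All 21 Ms4a genes of the RefSeq table lay on 1 chromosome, chromosome 19. Among them Ms4a7, Ms4a4a, Ms4a4c, Ms4a4b, Ms4a6c and Ms4a6b follow each other in that order with no other Ms4a gene between them. Ms4a4d comes next, then Ms4a6d, Ms4a2 and Ms4a3. RefSeq start sites gave 9 promoter windows for 8 of the 10 genes, each read here as the 250 bases before the start (build GRCm38.p6). The sequences of 3 of them are shown, that of Ms4a4a because, of the 10 genes, it differed most between genotypes relative to its error, and those of Ms4a6b and Ms4a6c because the log2 fold changes of these close relatives had opposite signs. In the last pair the capitals mark the longest run of bases that both share, while Ms4a4a is all in lower case because it held none of the motifs searched.
Ms4a4a, + strand of chr19:11375238-11375487: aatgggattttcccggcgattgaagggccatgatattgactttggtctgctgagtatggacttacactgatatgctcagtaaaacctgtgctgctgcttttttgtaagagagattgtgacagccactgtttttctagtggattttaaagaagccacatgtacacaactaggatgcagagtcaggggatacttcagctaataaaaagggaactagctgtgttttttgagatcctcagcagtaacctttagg
Ms4a6b, + strand of chr19:11518309-11518558: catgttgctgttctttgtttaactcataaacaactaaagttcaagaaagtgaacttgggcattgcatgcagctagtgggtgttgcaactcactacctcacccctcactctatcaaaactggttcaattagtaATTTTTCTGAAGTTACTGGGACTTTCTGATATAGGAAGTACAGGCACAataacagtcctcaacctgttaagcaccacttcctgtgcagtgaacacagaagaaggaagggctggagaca
Ms4a6c, + strand of chr19:11469118-11469367: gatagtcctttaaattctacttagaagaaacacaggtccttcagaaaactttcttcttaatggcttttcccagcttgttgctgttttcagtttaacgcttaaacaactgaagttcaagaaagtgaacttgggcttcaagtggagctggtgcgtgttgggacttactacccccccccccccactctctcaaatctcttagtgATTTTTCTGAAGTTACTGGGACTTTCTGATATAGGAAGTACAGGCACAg
The shared run is 48 bases long and leaves 70 bases to the start of Ms4a6b but 1 base to that of Ms4a6c. Over 175 aligned bases the windows of Ms4a6b and Ms4a6c were 85.1% identical, and those of Ms4a4b and Ms4a4c were 78.9% identical over 232. Between other windows of these genes the longest shared run was 9 bases. A set of 3 motifs was searched on both strands, and no match overlapped one of another motif. The PU.1 core GAGGAA, the binding element of a myeloid and B cell factor, was found in the windows of Ms4a4b and Ms4a4c, or 2 of 9 windows, against 23.3% of 32851 mouse windows of the same length. The octamer ATGCAAAT was found in 1 window, of Ms4a4c (1.6% of all), and the STAT6 motif, TTC and GAA with 4 bases between them, in 1 of Ms4a7 (5.85% of all). These matches describe letters in the windows and no binding was measured.

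The labels and the arrays were checked first. Scnn1b gave a mean of 139.7 ± 31.9 (SD, n = 3) without the transgene and of 1422 ± 98.3 (SD, n = 3) with it, and Scnn1b was the only gene of 19935 called, that is, with a Benjamini-Hochberg adjusted p under 0.05 in limma. Markers of lung were present on every array. Those of club cells, Scgb1a1 and Cyp2f2, gave lower values with the transgene. With Calcrl (log2 fold change -0.16 ± 0.05, SE), named after its values were seen, 3 of the 12 lung markers were wholly lower. That compares with 4.41% of all genes. Scgb1a1 gave 3948 to 4579 in wild type and 3379 to 3660.33 in Scnn1b-Tg, and Cyp2f2 gave 2029 to 2523 and 1594 to 1668, differences of -0.31 ± 0.07 (SE) and -0.48 ± 0.08 on the log2 scale with adjusted p-values of 0.398 and 0.205 in limma. Their part in the values below was not tested. On the first principal component of the log2 values (34.0% of the variance) wild type replicate 2 stood apart, at 16.3 against -8.91 to 5.46 for the others. Scnn1b-Tg replicate 3 stood apart on the second (22.6%), at 13.3 against -8.03 to 2.47.

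Ms4a4a and Ms4a6d had higher intensities in Scnn1b-Tg lung, and their groups of arrays did not overlap. Of the 10 genes, 7 had a log2 fold change (Scnn1b-Tg minus wild type) above 0 and 3 below, with a median of 0.08 against 0.0052 over all genes tested. Values above 0 were found for 53.2% of all genes. None of the 10 was called, where 0.00502% of all genes were called as higher and 0% as lower, and adjusted p-values in limma ran from 0.109 to 0.995. At an unadjusted p under 0.05, 3 were higher, against 3.96% of all genes, and 1 lower, against 2.05%. The 3 Scnn1b-Tg arrays lay wholly above wild type for 2 of the genes, against 6.26% of all genes, and wholly below for 1, against 4.41%. Since the genes were chosen with this comparison known, nothing is read from these counts. Without wild type replicate 2 and Scnn1b-Tg replicate 3 none was called, 4 did not overlap and the median was 0.10. Groups of fewer arrays overlap less easily, and the share of all genes that did not overlap was not taken there. That count is therefore not compared with those from all arrays. Without Scnn1b-Tg replicate 1, on which 5 of the 10 genes were highest, 5 were above 0 and the median was 0.0060, against 0.0074 over all genes in the same fit. Without wild type replicate 3 the median was 0.14, and without Scnn1b-Tg replicate 2 it was 0.12.

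**Figure D1:**
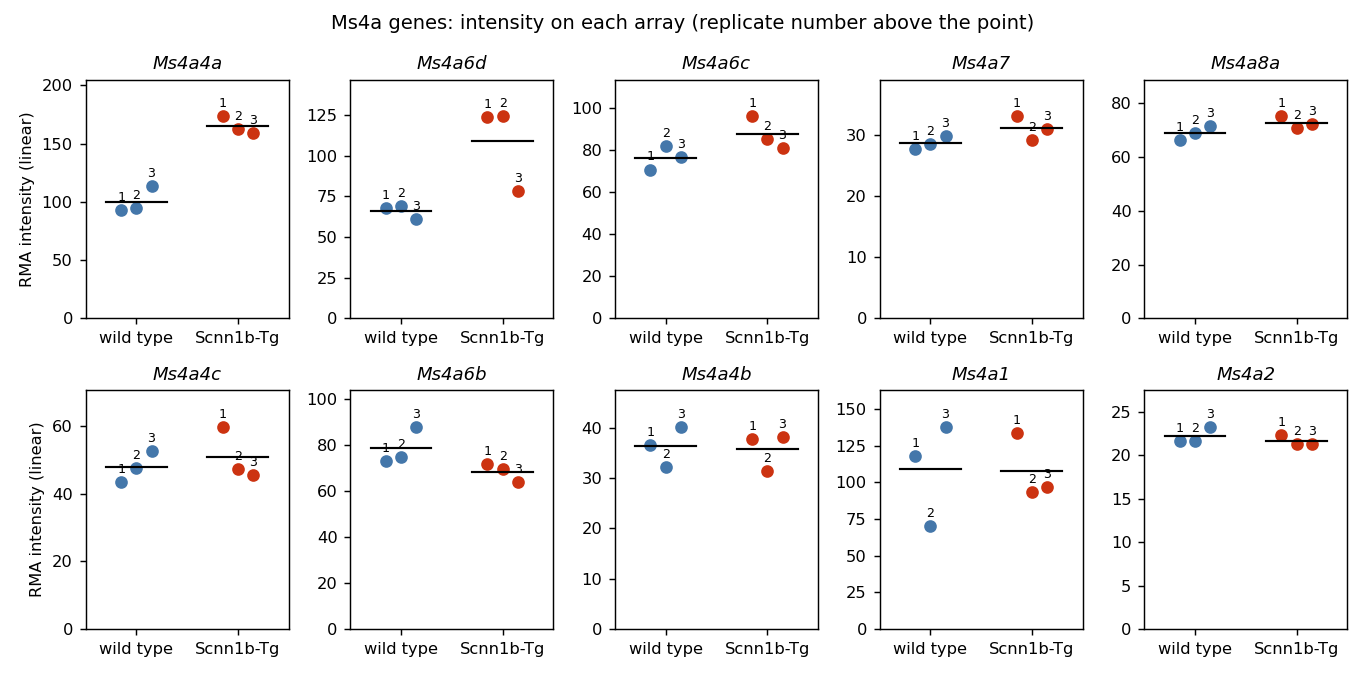
Intensity (linear RMA scale, y axis from 0) of the 10 Ms4a genes on each of the 3 wild-type (blue) and 3 Scnn1b-Tg (red) arrays, with a black line at each group mean and the replicate number above the point. Ms4a4a and Ms4a6d lie wholly higher in Scnn1b-Tg and Ms4a6b wholly lower, and the groups overlap for the other 7.

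Among the macrophage genes Ms4a4a gave the firmest difference. Its intensity was 92.7, 94.5 and 113 on the wild-type arrays and 174, 162 and 159 on the Scnn1b-Tg arrays. All transgenic arrays were thus above all wild-type arrays, and the gap between the groups was 0.49 on the log2 scale. The difference was 1.65-fold, or 0.72 ± 0.09 (SE) on the log2 scale, with a 95% interval of the fit from 0.52 to 0.93 and an adjusted p of 0.109 in limma. It was the 29th largest of all 19935 log2 fold changes. With single arrays left out it ran from 0.67 to 0.82. Ms4a4a was called under 3 alternatives: with the 6645 dimmest genes left out (adjusted p = 0.0108), with a robust variance that follows intensity (0.0113) and with 16 taken off each value (0.032). Over all 16 alternatives its limma adjusted p ran from 0.0108 to 0.485.

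Ms4a6d, another gene of monocytes and macrophages, was higher on average by nearly as much but with a wide spread among the Scnn1b-Tg arrays. Its intensity was 67.9, 69.2 and 60.9 in wild type and 124, 124 and 78.2 in Scnn1b-Tg. Replicates 1 and 2 of Scnn1b-Tg were close to each other, while replicate 3 was only just above the highest wild-type array, by 0.18 on the log2 scale. The log2 fold change was 0.69 ± 0.18 (SE), or 1.62-fold, with a 95% interval of 0.27 to 1.11, an adjusted p of 0.507 in limma and rank 32 among all genes. Without Scnn1b-Tg replicate 3 it was 0.91 with an adjusted p of 0.0448, while without Scnn1b-Tg replicate 2 it was 0.58. Over all 16 alternatives the limma adjusted p of Ms4a6d ran from 0.0448 to 0.988.

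Ms4a7 and Ms4a8a, which are also known from macrophages, differed little between genotypes. Which cells of the lung gave their signals was not tested. Ms4a8a intensity was 66.3, 69.1 and 71.5 in wild type and 75.3, 70.8 and 72.3 in Scnn1b-Tg. The groups overlapped, since Scnn1b-Tg replicate 2 lay below wild type replicate 3, and the log2 fold change was 0.08 ± 0.05 (SE) with a 95% interval from -0.04 to 0.20, and without wild type replicate 1 it was 0.05. Ms4a7 was among the 6645 dimmest genes, with 27.8, 28.6 and 29.8 in wild type and 33.1, 29.2 and 30.9 in Scnn1b-Tg. Here too 1 transgenic array lay within the wild-type range, and the log2 fold change was 0.11 ± 0.06 (SE; 95% interval from -0.03 to 0.25). Without Scnn1b-Tg replicate 1 the value of Ms4a7 was 0.07. A value this close to the lowest intensities of the arrays (18.3 to 18.6) understates any fold change if the scale has an offset. With 16 taken off each intensity Ms4a7 gave 0.24 and Ms4a4a 0.83.

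Ms4a6c and Ms4a6b, whose start windows are printed above and between which the RefSeq table has 1 other protein-coding gene, Gm8369, had log2 fold changes of opposite sign and similar size. Ms4a6c intensity was 70.7, 81.7 and 76.5 in wild type and 96.0, 85.3 and 81.0 in Scnn1b-Tg. Its lowest transgenic array, replicate 3, lay just under wild type replicate 2, by 0.01 on the log2 scale, so the groups touched. The log2 fold change of Ms4a6c was 0.20 ± 0.08 (SE), from 0.13 (Scnn1b-Tg replicate 1 left out) to 0.25 with single arrays left out. Ms4a6b intensity was 72.9, 74.8 and 87.8 in wild type and 71.6, 69.5 and 63.7 in Scnn1b-Tg. All transgenic arrays were below all wild-type arrays, but by only 0.03 on the log2 scale at the nearest pair. The log2 fold change of Ms4a6b was -0.20 ± 0.08 (SE), and without wild type replicate 3, its highest array, it was -0.12. In limma the adjusted p was 0.818 for Ms4a6c and 0.822 for Ms4a6b. Over all 16 alternatives Ms4a6c stayed above 0 (0.13 to 0.30) and Ms4a6b below 0 (-0.25 to -0.12). The probe sequences were not used here, so whether probes of 1 relative also catch RNA of another was not tested.

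Ms4a4c and Ms4a4b, next to each other between Ms4a4a and Ms4a6c, showed no difference beyond their spread. Ms4a4c intensity was 43.5, 47.7 and 52.6 in wild type and 59.8, 47.3 and 45.6 in Scnn1b-Tg. Only Scnn1b-Tg replicate 1 lay above the wild-type range, and without it the log2 fold change of 0.08 ± 0.12 (SE) turned to -0.04. Ms4a4b, the T cell member, had intensities of 36.7, 32.1 and 40.2 in wild type and 37.7, 31.3 and 38.2 in Scnn1b-Tg. Both groups covered almost the same range, and the log2 fold change was -0.02 ± 0.11 (SE), with values above 0 without wild type replicate 3 (0.05) or Scnn1b-Tg replicate 2 (0.07).

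Ms4a1, the B cell member, varied widely within each genotype. Its intensity was 118, 70.4 and 138 in wild type and 133, 93.1 and 96.8 in Scnn1b-Tg. The span over the 6 arrays was 0.97 on the log2 scale, larger than that of Ms4a4a (0.91), yet the transgenic arrays all lay within the wild-type range. The log2 fold change was 0.02 ± 0.26 (SE) with a 95% interval from -0.58 to 0.63, and it turned below 0 after quantile normalization (-0.0030), median centring (-0.0015) or with array weights (-0.09). Leaving out wild type replicate 2 gave -0.26, and leaving out wild type replicate 3 gave 0.22. Of 17 B cell markers 12 were, like Ms4a1, lowest on wild type replicate 2. Their mean deviation from the average of the arrays there was -0.23 and that of Ms4a1 was -0.58. That array stood apart on the first principal component, and the share of all genes lowest on it was not taken. The lists of alternative activation (-0.45), eosinophils and neutrophils (-0.24), macrophages (-0.18) and monocytes (-0.11) also had their lowest mean there. Of their genes 4 of 16, 5 of 15, 7 of 19 and 3 of 13 were lowest on it. The summed intensity of the B cell markers was 762 to 959 in wild type and 894 to 1035 in Scnn1b-Tg. Of these 17 markers 14 had a log2 fold change above 0, with a median of 0.12, against 53.2% of all genes above 0, and none was called. Without wild type replicate 2 it was 11 of 17, with a median of 0.02. Dropping replicate 1 or 2 of Scnn1b-Tg gave a median of 0.05 or 0.18, and dropping the third wild-type array gave 0.21. The largest values were 0.37 ± 0.17 (SE) for Cd37, a tetraspanin of B cells, and 0.22 ± 0.11 for Pou2af1, a B cell coactivator, which were 0.17 and 0.12 without wild type replicate 2. The part of B cell content in the values of Ms4a1 was not tested.

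Ms4a2, the IgE receptor chain, was near the lowest intensities of the arrays. It gave 21.6, 21.7 and 23.3 in wild type and 22.3, 21.3 and 21.2 in Scnn1b-Tg. The groups overlapped and the log2 fold change was -0.04 ± 0.05 (SE). Its partner chain Fcer1a was equally dim, at 20.4, 21.3 and 22.3 against 21.6, 21.3 and 20.9 (log2 fold change -0.0033 ± 0.05). The shared γ chain Fcer1g, which many other myeloid cells carry too, was brighter, with 132, 131 and 138 in wild type and 158, 140.03 and 159 in Scnn1b-Tg. All 3 transgenic arrays were higher for Fcer1g (0.19 ± 0.06), with an adjusted p of 0.739 in limma. Among 13 mast cell and basophil markers 8 were among the 6645 dimmest genes, and their summed intensity was 1019 to 1156 in wild type and 1073 to 1114 in Scnn1b-Tg. Of the 13, 11 were above 0 (median 0.05) and 3 were wholly higher, against 6.26% of all genes, and none was called. The largest value was that of Hdc, the histamine-forming enzyme, at 0.23 ± 0.07.

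**Figure D2:**
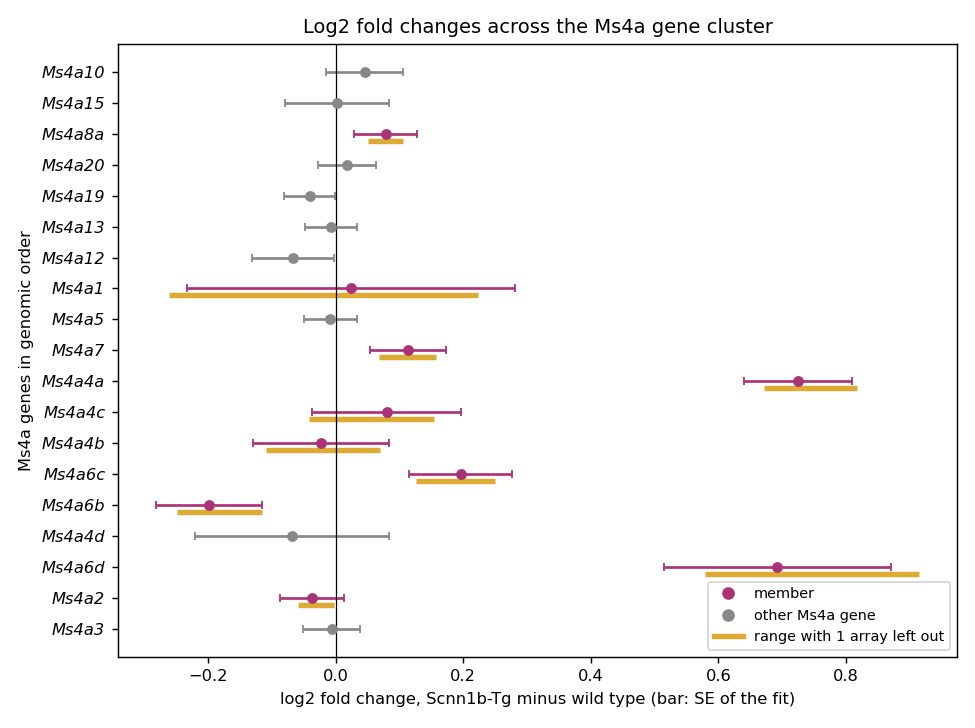
Log2 fold change (x axis, Scnn1b-Tg minus wild type) with its SE for the 19 Ms4a genes on the array, in their order along chromosome 19 (y axis); yellow bars give the range with 1 array left out for the 10 genes described. Ms4a4a (0.72) and Ms4a6d (0.69) stand to the right, Ms4a6b (-0.20) to the left, and the 9 other Ms4a genes lie between -0.07 and 0.05.

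The rest of the family showed little difference. The 9 other Ms4a genes had log2 fold changes from -0.07 to 0.05, the smallest unadjusted p among them in limma was 0.335, and 6 were among the 6645 dimmest genes. Ms4a19, near the lowest intensities of the arrays, was wholly lower in Scnn1b-Tg by a small amount (-0.04 ± 0.04, SE). It gave 19.4, 19.7 and 19.9 in wild type and 19.0, 19.3 and 19.0 in Scnn1b-Tg. Ms4a4d, which lies between Ms4a6b and Ms4a6d, gave 32.5, 44.4 and 46.9 in wild type and 34.3, 44.0 and 38.8 in Scnn1b-Tg. These groups overlapped (-0.07 ± 0.15, SE), although the genes on either side did not, and the value was -0.23 or 0.03 when replicate 1 or 3 of wild type was dropped. Ms4a15, a gene with 61.2, 69.6 and 63.8 in wild type, gave 68.8, 68.1 and 58.2 with the transgene, and the log2 fold change was 0.0017 ± 0.08 (SE), from -0.04 to 0.08 with single arrays left out. The related genes Tmem176a and Tmem176b, which lie outside the cluster, were higher by 0.18 ± 0.07 and 0.18 ± 0.05. For Tmem176b, with 918, 962 and 976 in wild type and 1025, 1097 and 1116 in Scnn1b-Tg, the groups did not overlap, and the adjusted p in limma was 0.611. Of the 10 genes measured on this list of relatives 0 were called in limma in either direction, against 2 higher (3.96% of all genes) and 0 lower (2.05% of all genes) at an unadjusted p under 0.05. Their median was -0.0023 and ran from -0.0089 to 0.02 with single arrays left out.

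Genes whose proteins are known to work with Ms4a proteins mostly had log2 fold changes above 0. That held for 9 of 10, against 53.2% of all genes, with a median of 0.17 against 0.0052 over all genes. None was called in limma in either direction, 5 were higher at an unadjusted p under 0.05, against 3.96% of all genes, and 6 were wholly higher in Scnn1b-Tg, against 6.26%. With single arrays left out 3 to 5 were higher at that p, and the median ran from 0.13 to 0.20. The list was chosen with earlier results of these data known, so nothing is read from these counts. Clec7a, the gene of Dectin-1, had intensities of 121, 118 and 113 in wild type and 190.2, 182 and 127 in Scnn1b-Tg. As with Ms4a6d, Scnn1b-Tg replicate 3 was the lowest of the transgenic arrays, and the log2 fold change was 0.48 ± 0.15 (SE), or 0.67 without that array. Tyrobp, the adaptor DAP12 of myeloid receptors, gave 0.45 ± 0.11, and Syk, the kinase downstream of these adaptors, 0.35 ± 0.06. The limma adjusted p was 0.694 for Clec7a, 0.477 for Tyrobp and 0.225 for Syk. Trem2, a lipid receptor of macrophages, gave 0.17 ± 0.11, and Tnfrsf18, the T cell receptor GITR that Ms4a4b is known to associate with, 0.08 ± 0.09. For both the groups overlapped. Trem2 was 0.05 without Scnn1b-Tg replicate 1, and Tnfrsf18 was -0.01 or 0.17 when replicate 3 or 2 of wild type was dropped.

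Likeness was measured for the 3 genes with the widest span over the arrays, as the root mean square difference between log2 values centred on the mean of the 6 arrays. The genes closest to Ms4a4a were Cd74, the MHC class II invariant chain, at 0.10, Fcgr2b, the inhibitory IgG receptor, also at 0.10, and Sla, an adaptor protein, at 0.12. For Ms4a6d they were Ccl11, the chemokine eotaxin-1, at 0.10, Clec7a at 0.12 and H2-Ab1, an MHC class II β chain, at 0.12. Ccl11 had 49.0, 47.3 and 46.5 in wild type and 89.7, 87.0 and 65.7 in Scnn1b-Tg, so it shared the lower value on Scnn1b-Tg replicate 3, and its log2 fold change of 0.75 was 0.89 without that array. For Ms4a1 they were Gp9, a platelet glycoprotein, at 0.07, the B cell gene Fcrla at 0.11 and Alox12, a lipoxygenase of platelets, at 0.12. Gp9 had 82.6, 53.4 and 94.1 in wild type and 95.9, 73.6 and 73.9 in Scnn1b-Tg, lowest on wild type replicate 2 like Ms4a1. Without that array the log2 fold change turned below 0 for Gp9 (0.11 to -0.13), Fcrla (0.07 to -0.13) and Alox12 (0.010 to -0.19). These matches are the nearest among all genes over 6 arrays and are a description.

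**Figure D3:**
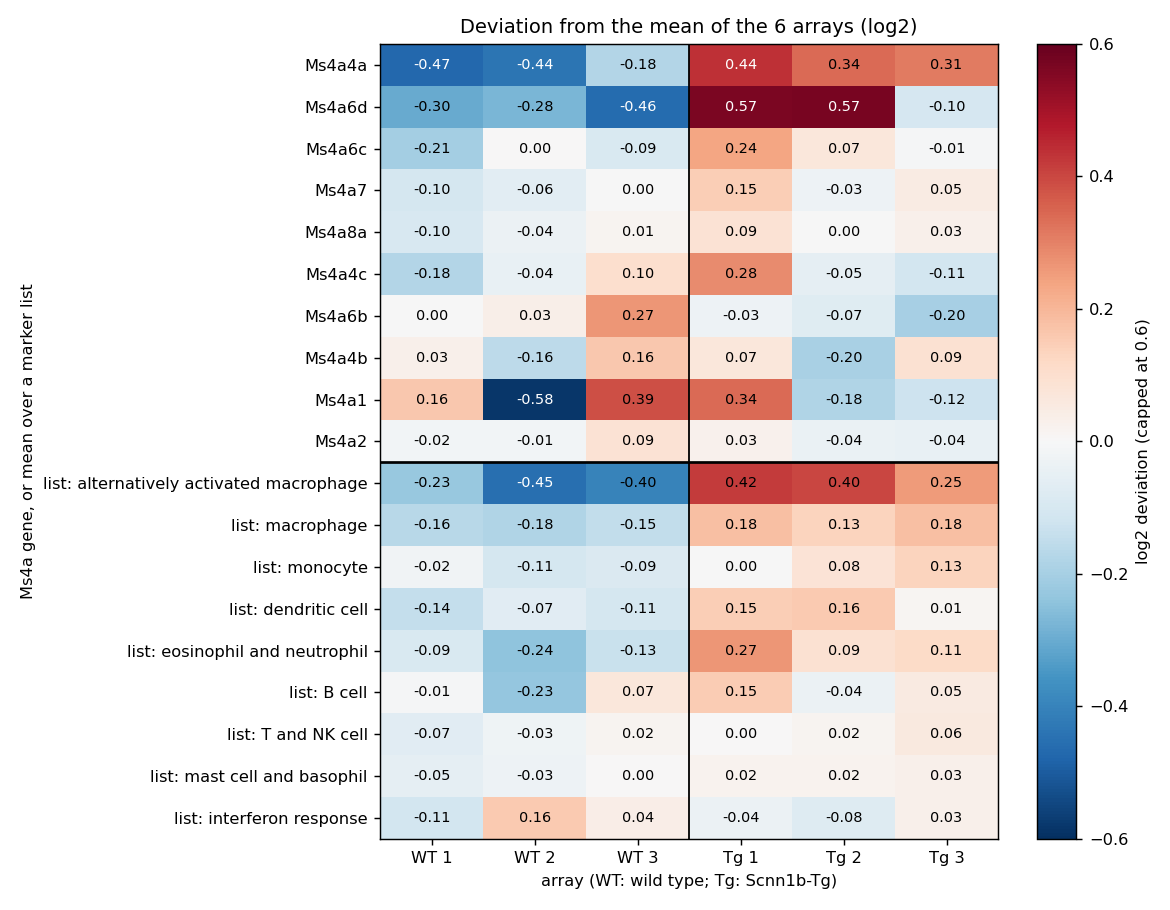
Deviation of each log2 value from the mean of the 6 arrays (colour, log2 scale) for the 10 Ms4a genes (upper rows) and the mean over each marker list (lower rows), by array (columns). Ms4a4a and Ms4a6d are below their mean on all wild-type arrays. So are the lists of macrophages, alternative activation, monocytes, dendritic cells, and eosinophils and neutrophils. Ms4a6d is also below its mean on Scnn1b-Tg 3 (-0.10). Ms4a1 is lowest on wild type 2 (-0.58), as is the B cell list (-0.23).

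Macrophage markers, like Ms4a4a, were higher on all 3 Scnn1b-Tg arrays when averaged over the list. The same held for the lists of alternative activation, monocytes, dendritic cells, eosinophils and neutrophils, mast cells and basophils, and protein partners. Of 19 general macrophage markers 16 had a log2 fold change above 0, with a median of 0.33, led by Chil3 (1.34 ± 0.19, SE) and Itgam (0.91 ± 0.15). As a mean over the list they deviated by -0.18 to -0.15 in wild type and by 0.13 to 0.18 in Scnn1b-Tg. They were not lower on Scnn1b-Tg replicate 3 (0.18) than on replicate 2 (0.13), whereas Ms4a6d was (-0.10 against 0.57). Their summed intensity was 6223 to 6970 in wild type and 7289 to 8521 in Scnn1b-Tg, but the brightest genes dominate such sums. Without Chil3 (740 to 1144 and 1945 to 2748) the sums overlapped, at 5079 to 5966 and 5344 to 5772. Most of what remained was Lyz2, named after its values were seen, at 3156, 4030 and 3520 in wild type and 3403, 3543 and 2899 in Scnn1b-Tg. Counted singly, 11 of the 19 markers were wholly higher, against 6.26% of all genes, and 0 wholly lower, against 4.41%. For 16 genes of alternative activation, led by Alox15 and Chil4, 14 were above 0, the median was 0.56, and the sums were 3166 to 4404 and 6510 to 8277. No gene of either list was called in limma. At an unadjusted p under 0.05 11 of the 19 and 12 of the 16 were higher, against 3.96% of all genes. Both lists were chosen with earlier results of these data known, so nothing is read from these counts. The lists share 2 genes, Chil3 and Mrc1, the latter named after its values were seen. The part of macrophage content in the values of Ms4a4a and Ms4a6d was not tested.

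As a mean over the list, the genes of alternative activation deviated by 0.42, 0.40 and 0.25 on Scnn1b-Tg replicates 1, 2 and 3, and 14 dendritic cell markers by 0.15, 0.16 and 0.01. Both means were lowest among the transgenic arrays on replicate 3, as Ms4a6d was. Of the 16 genes of alternative activation, however, only 7 were lowest there. Of the 14 dendritic cell markers 12 were above 0 (median 0.13), led by H2-Ab1 (0.65 ± 0.10) and Cd74 (0.62 ± 0.08), and the sums were 1533 to 1596 in wild type and 2001 to 2246 in Scnn1b-Tg. These 2 MHC class II genes made up most of each sum, so the sums say little about the other markers. Within Scnn1b-Tg 9 of the 14 were lowest on replicate 3, H2-Ab1 among them (919, 881 and 716), but Cd74 was highest there (555, 563 and 605). The part of dendritic cell content in the value of Ms4a6d was not tested.

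The remaining lists gave smaller medians than the macrophage lists. Of 13 monocyte markers 10 were above 0 (median 0.11, but 0.05 when wild type replicate 2 was dropped, and 0.17 or 0.06 when replicate 1 or 3 of Scnn1b-Tg was), led by Ccr2 (0.66 ± 0.17, or 0.82 without Scnn1b-Tg replicate 3), with sums of 4313 to 5171 in wild type and 4312 to 4857 in Scnn1b-Tg. Of 15 eosinophil and neutrophil markers 13 were above 0 (median 0.21, but 0.13 without Scnn1b-Tg replicate 1), led by Ccr3 (1.40 ± 0.32, or 1.78 without Scnn1b-Tg replicate 3), and their sums were 673 to 811 against 962 to 1401. This list pools 2 cell types. Of its neutrophil genes, named after their values were seen, Retnlg (1.38), Mmp9 (0.30) and Ltf (0.28) were higher. S100a8 (-0.08), Camp (-0.06), Csf3r (0.01), Ly6g (0.04), S100a9 (0.04) and Cxcr2 (0.07) were near 0. Of 17 T and NK cell markers 10 were above 0 (median 0.02, from -0.02 to 0.04 with single arrays left out), led by Il7r (0.41 ± 0.09), with sums of 731 to 771 against 767 to 803. Interferon response genes, of which 9 of 12 were below 0, had a median of -0.05, which was 0.02 without wild type replicate 2. None of the genes of these lists or of the dendritic cell list was called in limma.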

How the data were processed

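Total lung RNA (Trizol) was labelled as whole-transcript sense target, per the labels' protocols. The deposited values are intensities on a linear scale, made by the authors with RMA, as the submitters' processing notes state. Neither its version and settings nor any added constant is given in the sources used here. Array medians were 47.6 to 48.5. Of 28815 probe sets 21780 had exactly 1 symbol in the platform annotation, 1605 several and 5430 none; the brightest per symbol gave 19935 genes.

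The fit used limma 3.58.1 (R 4.3.3) on log2 intensities (lmFit, eBayes, genotype as the only term, 6.99 degrees of freedom after moderation), with two-sided p-values adjusted over all genes by Benjamini-Hochberg. Errors of log2 fold changes are SEs of this fit. The fit was checked on simulated data with 19935 genes: 99.8% of genes shifted by a log2 value of 1 were found and 100% of those shifted by 2, with 11.4 false calls among 211 per run. The simulation used normal noise with the moderated variances of this fit and 200 shifted genes, so its shares do not carry over to these data. Here Alox15 (2.46 ± 0.27, SE) and Chil4 (1.67 ± 0.41) were not called, with adjusted p-values of 0.109 and 0.475 in limma.

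The Ms4a genes, the lists and the tests were chosen with earlier results of these data known. All Ms4a genes, their relatives and partners could be named, and of each other list the 2 genes with the largest absolute log2 fold change. Ms4a19 was added to the relatives shown after its values were seen. Promoter windows and gene order come from RefSeq tables (GRCm38.p6); the array's own positions were not used. Alternatives were other scaling, probe set, filter, variance and offset choices, a replicate block, and arrays left out. The number of arrays limits the precision.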

Additional observations from a re-analysis of the deposited data

How the results depend on the processing

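The count of called genes over the whole array was 39 with the 6645 dimmest genes dropped, 36 with a robust variance that follows intensity, 23 with 16 subtracted, 6 without wild type replicate 2 and Scnn1b-Tg replicate 3, and 0 to 5 with single arrays left out. Samples of the 2 genotypes with the same replicate number had weakly correlated deviations across genes (0.03 to 0.04). Samples with different numbers were not compared, so whether the numbers pair the samples was not tested. With the number as a block 3 genes were called, none an Ms4a gene. The count of called Ms4a genes was 1, Ms4a4a, with the dimmest genes dropped, with the robust variance or with 16 subtracted, and 0 to 1 with single arrays left out. Of them 3 to 5 did not overlap with single arrays left out. Smaller groups overlap less easily and the share of all genes was not taken there, so no rise is read from this. Of genes on the other lists 10, 9 and 6 were called under the same 3 settings, where 39 of 13290, 36 of 19935 and 23 of 19935 genes were. With the block it was 1, without both arrays that stood apart 2, with single arrays left out 0 to 1, and otherwise 0. The lists were chosen with earlier results of these data known, so nothing is read from these counts. The median of the Ms4a genes stayed above 0, but without Scnn1b-Tg replicate 1 it was 0.0060, below that of all genes (0.0074); its highest value was 0.14. Directions reversed for Ms4a1 under quantile normalization (-0.0030), median centring (-0.0015), array weights (-0.091), and without both arrays that stood apart (-0.19); with single arrays left out Ms4a1 ran from -0.26 to 0.22, Ms4a4b from -0.11 to 0.069 and Ms4a4c from -0.042 to 0.15. With the dimmest genes dropped Ms4a2 and Ms4a7 have no value. Single arrays were not tested as outliers in groups of 3, and differences in dim genes are limited by signal over background.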
